A study of Mus musculus with 4 samples.

Results

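A set of 10 transcription factors known to specify granule and periglomerular interneurons of the olfactory bulb was followed in adult mice carrying either of the fixed versions of an RNA editing site in *Unc80*. They were *Meis2*, *Tshz1*, *Sp8*, *Sp9*, *Dlx1*, *Dlx2*, *Dlx5*, *Dlx6*, *Pax6* and *Etv1*, taken from the deposited gene table by their symbols, and all 10 were among its 15818 genes. In *Unc80* S/S mice, the unedited group of the sample labels, the codon of the edited serine was changed from AGC to TCC, which still encodes serine but cannot be edited. In *Unc80* G/G mice, the edited group, it was changed to GGC, which encodes glycine as the edited RNA does. Both lines were knock-ins made with CRISPR/Cas9 in embryos of B6D2F1 donors, and no unmodified mice were among the samples. RNA came from the olfactory bulbs of male mice aged 2 to 5 months and made up 4 libraries, 2 for either genotype, each from a pool of 3 mice by the study's description, with 35465913 to 38051810 reads per library. A library therefore averages a pool, and any spread between libraries is a spread between pools. The genotypes are called S/S and G/G from here on.

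The bulb receives new inhibitory neurons throughout life. Progenitors in the walls of the lateral ventricles give rise to neuroblasts that migrate to the bulb and settle as granule cells in its depth or as periglomerular cells around the glomeruli, and nearly all of them release GABA. The homeobox factors of the Dlx family drive the production of these neurons and switch on the enzymes that make GABA, the zinc-finger factors Sp8 and Sp9 serve their later differentiation, among others to calretinin-expressing cells, and Meis2, Pax6 and Etv1 take part in forming the dopaminergic periglomerular cells. Several of these factors are still made by mature bulb interneurons, so their RNA in a whole adult bulb comes from settled cells as well as from new ones. In RNA from whole bulbs, fewer cells of a type and less RNA per cell cannot be told apart.

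None of the 10 factors differed between the genotypes by 1.2-fold in either direction, the smallest difference counted here as a change. Over all 15818 genes, 5.74% passed that fold (0.518% passed 1.5-fold), and among the 7178 genes at least as abundant as the lowest of the 10 factors, 0.209% did (0.0139% for 1.5-fold). *Dlx6* had the largest difference of the 10, at 1.11-fold lower in G/G, and *Meis2* the smallest, at a ratio of 1.007 between the higher and the lower genotype. Levels are given in CPM, the counted reads of a gene scaled to a fixed library total. The table holds 1 value per gene and genotype, the authors' mean of 2 libraries, so the levels are given without replicate error and the differences without a test. *Sp9* is the exception, since its reads in each library could be recovered from the means. The authors' own p-values, which the same table holds, were not used here.

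The paralogs *Sp8* and *Sp9* are shown first by sequence because of what their promoters share. In RefSeq's table of promoter windows (GRCm38.p6, around each annotated start), 7 of the 9 factors looked up had at least 1 window, and *Dlx5* and *Dlx6* had none. The stretches below end just before the annotated start site in each window and are written 5′ to 3′ on the strand of the gene. *Dlx2* is added as the Dlx gene whose window carries the same short motif. *Dlx6os1* is added as an abundant RNA annotated antisense across *Dlx6*. The *Dlx6os1* window shown is 1 of 2 and belongs to a start inside its annotated span (6820189 to 6871592). Transcription from that internal start runs away from *Dlx6* and does not cross it. Capitals mark the 15-base run GCGGCACTTCAAAGC in *Sp8* and *Sp9*, the letters ATTGG on the printed strand in *Sp8*, *Sp9* and *Dlx2*, and the letters TAATTA in *Dlx6os1*.
Sp8 chr12:118846983-118847227 (plus strand): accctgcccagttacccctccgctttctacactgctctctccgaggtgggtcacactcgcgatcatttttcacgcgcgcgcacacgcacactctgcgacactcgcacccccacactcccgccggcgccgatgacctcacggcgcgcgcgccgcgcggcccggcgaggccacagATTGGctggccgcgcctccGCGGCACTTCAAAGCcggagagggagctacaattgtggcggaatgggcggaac
Sp9 chr2:73271676-73271920 (plus strand): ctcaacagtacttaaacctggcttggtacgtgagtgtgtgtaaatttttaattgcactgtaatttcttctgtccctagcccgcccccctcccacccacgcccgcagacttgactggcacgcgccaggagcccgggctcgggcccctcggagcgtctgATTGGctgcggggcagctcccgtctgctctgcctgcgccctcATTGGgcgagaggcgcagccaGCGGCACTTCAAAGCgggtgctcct
Dlx2 chr2:71546760-71547004 (minus strand): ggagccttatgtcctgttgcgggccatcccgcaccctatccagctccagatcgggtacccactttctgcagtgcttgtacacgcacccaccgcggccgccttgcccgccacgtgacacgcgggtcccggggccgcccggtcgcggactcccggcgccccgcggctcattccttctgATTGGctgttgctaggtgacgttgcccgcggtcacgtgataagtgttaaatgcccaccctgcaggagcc
Dlx6os1 chr6:6861689-6861933 (minus strand): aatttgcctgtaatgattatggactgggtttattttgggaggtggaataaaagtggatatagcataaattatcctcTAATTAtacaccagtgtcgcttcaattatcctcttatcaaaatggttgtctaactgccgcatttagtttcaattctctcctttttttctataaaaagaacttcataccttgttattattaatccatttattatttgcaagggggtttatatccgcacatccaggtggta

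The run GCGGCACTTCAAAGC was picked as the longest stretch shared by a window of *Sp8* and a window of *Sp9*. Its presence in both was thus fixed by the choice. On either strand it was found in 2 of the 32851 windows of the table (0.00609%), those of *Sp8* and *Sp9*. It begins 58 bases before the start site of the *Sp8* window shown and 30 bases before that of the *Sp9* window. The *Sp8* window is 1 of 3 and lies inside the annotated gene (118846329 to 118852576), ahead of an internal start. The *Sp9* stretch ends just before the annotated gene begins (73271925), so the distances refer to unlike starts. The letters ATTGG, which several families of promoter-binding factors can read, are common, with 37.4% of all windows holding them on either strand, and 6 of the 11 windows of the factors did, those of *Dlx2*, *Meis2*, *Pax6*, *Sp8* and *Sp9*. TAATTA, the core letters that many homeodomain proteins bind, stood in 5.29% of all windows and in 1 of the 11, a window of *Sp8* other than the one shown. These motifs do not overlap each other in the stretches shown, they were chosen after the sequences had been seen, and a match of letters is a description and not a binding site.

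*Dlx1* and *Dlx2* encode the early-acting pair of Dlx factors and lie tail to tail, transcribed towards each other, on chromosome 2, at 71528113 to 71533981 on the plus strand and at 71543408 to 71546754 on the minus strand (GRCm38, GENCODE M21). *Dlx1* was at 339.4 CPM in S/S and 345.4 CPM in G/G, a log2 ratio of 0.03. *Dlx2* was at 45.1 and 47.9 CPM, a log2 ratio of 0.09. Both were thus slightly higher in G/G. The interval that counting error alone allows, computed from the approximate number of counted reads behind each mean, ran from -0.0049 to 0.06 for *Dlx1* and from 0.0038 to 0.17 for *Dlx2* on the log2 scale (95%). It leaves out the spread between pools. Among genes within 1.5-fold of its own level, 51.6% of 562 differed by more than *Dlx1* and 14.9% of 3187 by more than *Dlx2*, in either direction.

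*Dlx5* and *Dlx6*, which Dlx1 and Dlx2 activate, form the other pair, also tail to tail, on chromosome 6 at 6877805 to 6882085 (minus strand) and 6863334 to 6868568 (plus strand). *Dlx5* was at 37.9 CPM in S/S and 39.3 CPM in G/G, a log2 ratio of 0.05 with a counting interval of -0.04 to 0.14. *Dlx6* was at 28.05 and 25.37 CPM, a log2 ratio of -0.14 with a counting interval of -0.25 to -0.04. The neighbours of this locus therefore had ratios of opposite sign. Of the 3201 genes at a level like that of *Dlx6*, 5.12% differed by more than it did. It was the sole member past 1.1-fold, a size that 18.1% of all genes and 2.34% of the equally or more abundant genes reached. No library values could be recovered for *Dlx6* itself. Over the 466 genes with recovered reads that were at least as abundant as *Dlx6*, the libraries of a genotype had a standard deviation of 0.06 on the log2 scale, pooled over genes, and whether the difference of *Dlx6* exceeds its own spread was not tested.

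**Figure D1:**
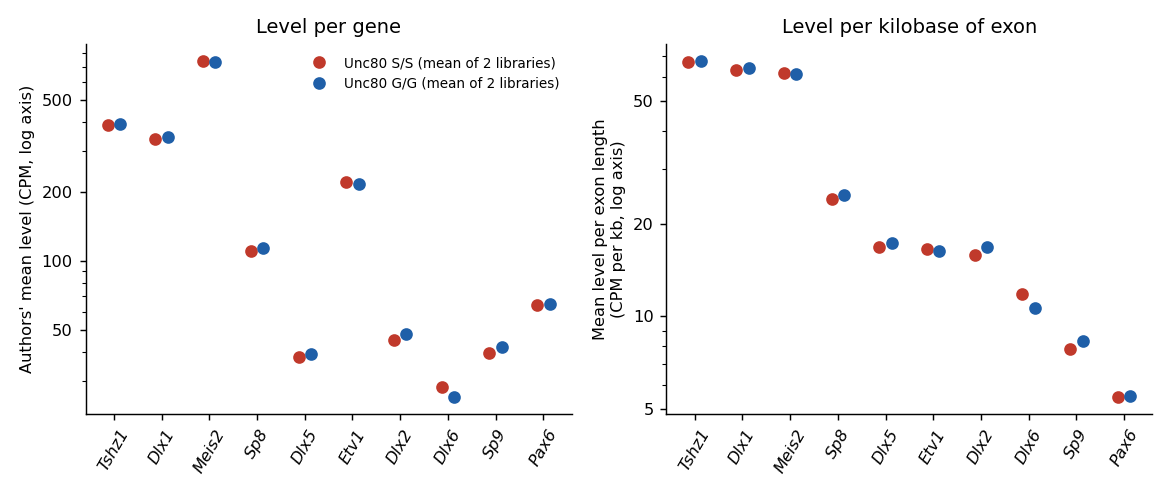
Levels of the 10 factors in S/S (red) and G/G (blue), as the authors' mean of 2 libraries in CPM on the left and divided by exon length on the right (CPM per kilobase), both on log axes and in the same gene order. The points of each gene nearly coincide, with the widest gap at *Dlx6* (28.05 and 25.37 CPM).

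Levels were divided by exon length, which allows a rough comparison of different genes. The length counts every exon of all annotated transcripts, from 2.263 kb (*Dlx5*, 3 transcripts) to 11.694 kb for *Pax6* (26 transcripts) and more. Genes with many transcripts may therefore come out too low. On this scale *Tshz1* (66.8 and 67.5 CPM per kb in S/S and G/G), *Dlx1* (62.9 and 64.0) and *Meis2* (61.6 and 61.2) stood at the top. They were followed by *Sp8* with 24.1 and 24.9 CPM per kb, and then by *Dlx5* (16.7 and 17.4), *Etv1* (16.6 and 16.3) and *Dlx2* (15.8 and 16.8), which lay close together. *Dlx6* (11.8 and 10.7 CPM per kb), *Sp9* (7.84 and 8.36) and *Pax6* (5.46 and 5.53) had the lowest levels. The order was the same in both genotypes except that *Dlx2* and *Etv1* changed places, and without values per library neighbours in this order could not be tested. Within the Dlx pairs, *Dlx1* stood 3.98 times above *Dlx2* per kb in S/S and 3.82 times in G/G. *Dlx5* stood 1.42 and 1.63 times above *Dlx6*.

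The Dlx loci also make antisense RNAs. *Dlx6os1*, also called Evf2, is a noncoding RNA known to act with Dlx proteins at the enhancers between *Dlx5* and *Dlx6*. It was at 283.8 CPM in S/S and 306.5 CPM in G/G (log2 ratio 0.11), so that *Dlx6os1* and *Dlx6* had ratios of opposite sign. No counting interval was computed for *Dlx6os1*. In GENCODE M21 the symbol also names another RNA on the same strand, which shares 104 exon bases with the antisense RNA. Which of them the level counts is not given. *Dlx6* lies inside the span of *Dlx6os1* on the other strand, but their annotated exons share 0 bases. *Dlx6os2* shares 104 bases, 4.38% of the exon bases of *Dlx6*, and was not analysed here. *Dlx1as*, antisense to *Dlx1*, was at 12.6 and 12.2 CPM (log2 ratio -0.06) and shares 335 exon bases with it, 6.21% of those of *Dlx1* and 20.6% of its own. The strand setting of the authors' counting is not given in the sources used here, and the kit is described as stranded total RNA in the methods and as an mRNA kit in the labels, so reads from such shared bases cannot be told apart.

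**Figure D2:**
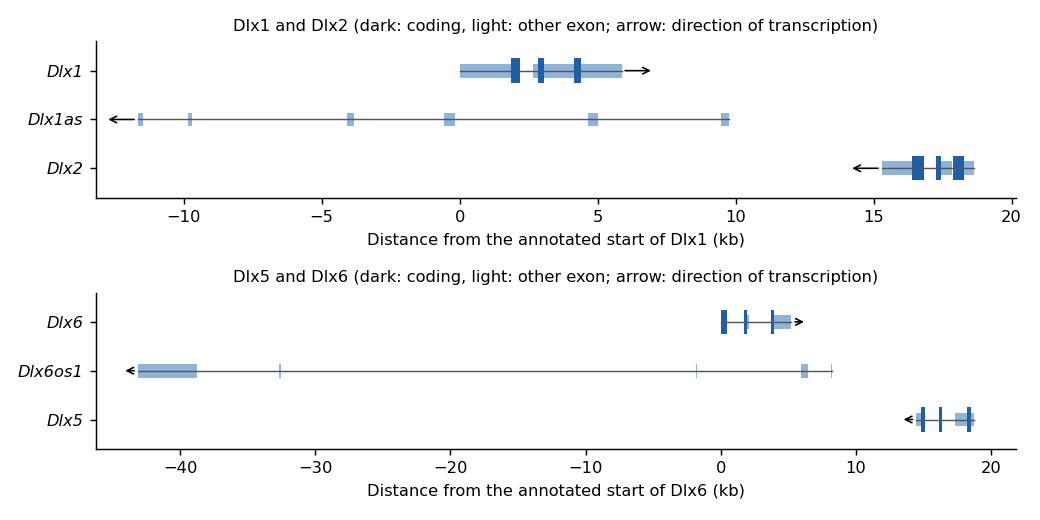
Annotated exons at the *Dlx1*/*Dlx2* locus (top) and the *Dlx5*/*Dlx6* locus (bottom), drawn to scale in kilobases from the start of *Dlx1* and of *Dlx6*, with coding parts dark, other exon parts light and an arrow for the direction of transcription. *Dlx1as* crosses exons of *Dlx1* (335 shared bases), while the exons of *Dlx6os1* lie beside those of *Dlx6* (0 shared bases).

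*Sp8*, on the plus strand of chromosome 12 at 118846329 to 118852576, was at 109.9 CPM in S/S and 113.3 CPM in G/G. Its log2 ratio was 0.04, with a counting interval of -0.01 to 0.10, and 33.8% of the 2011 genes at a like level differed by more. Its paralog *Sp9*, which acts with Sp8 in the same interneurons, lies on the plus strand of chromosome 2 at 73271925 to 73284706. It was at 39.5 and 42.1 CPM, a log2 ratio of 0.09, the highest ratio among the 10. *Sp8* and *Sp9*, which carry the shared 15-base run, were among the 7 of 10 factors with means higher in G/G, each by under 1.1-fold. A link to the run was not tested. Per kb, *Sp8* stood 3.08 times above *Sp9* in S/S and 2.98 times in G/G. *Sp9* shares 270 exon bases (5.35% of its own) with *Cir1* on the other strand.

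*Sp9* was the member whose means split into whole reads of each library. The S/S libraries held 959 and 1081 reads of *Sp9* (36.2 and 42.8 CPM). The G/G libraries held 1077 and 1034 reads (42.5 and 41.8 CPM). The S/S library of larger size was low, and the other lay above both G/G libraries, so the groups overlapped. The libraries of S/S differed by 0.24 on the log2 scale and those of G/G by 0.02, beside a difference of 0.09 between the genotypes. The genotype difference, here and in the medians below, compares means of 2 libraries. Such means vary less than single libraries even without a genotype difference. By edgeR's quasi-likelihood test, over the 2234 genes with recovered reads, *Sp9* had a log2 fold change of 0.09 (SE 0.07, 2 libraries per genotype) and an adjusted p of 0.986. Of these genes, 0.0895% had an adjusted p under 0.05 and 5.24% an unadjusted p under 0.05. The direction turned without the low S/S library, to -0.023 (limma, adjusted p = 0.988), and the value rose to 0.21 without the other S/S library (limma, adjusted p = 0.835). Over the 466 recovered genes at least as abundant as the lowest factor, the median difference was 0.05 between the S/S libraries, 0.06 between the G/G libraries and 0.04 between the genotypes. *Sp9* was thus farther apart in S/S than the median of these genes.

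*Meis2* encodes a TALE homeodomain protein that works as a partner of Pax6 and Dlx2, and it spans 115863064 to 116065839 on the minus strand of chromosome 2. It was at 742.2 CPM in S/S and 737.1 CPM in G/G. Its log2 ratio was -0.01 with a counting interval of -0.03 to 0.01, the narrowest of the 10, and 82.8% of the 151 genes at a like level differed by more. *Pax6*, a paired-box homeodomain factor on chromosome 2 (105668900 to 105697364, plus strand), was at 63.9 and 64.7 CPM, a log2 ratio of 0.02 with a counting interval of -0.05 to 0.09. Neither of these partners differed by more than counting error.

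*Tshz1* encodes a zinc-finger factor that newborn granule cells need to leave the migratory stream and spread through the bulb. It lies on the minus strand of chromosome 18 (84011627 to 84087706) and was at 390.5 CPM in S/S and 394.6 CPM in G/G. Its log2 ratio was 0.02, with a counting interval of -0.01 to 0.04. *Etv1*, an ETS-family factor also called ER81 that acts on the tyrosine hydroxylase gene, lies on chromosome 12 (38779380 to 38870484, plus strand). It was at 220.7 and 216.6 CPM, a log2 ratio of -0.03 with a counting interval of -0.06 to 0.01. Both differences lay inside counting error. Of the genes at a like level, 68.0% differed by more than *Tshz1* and 52.5% by more than *Etv1*.

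**Figure D3:**
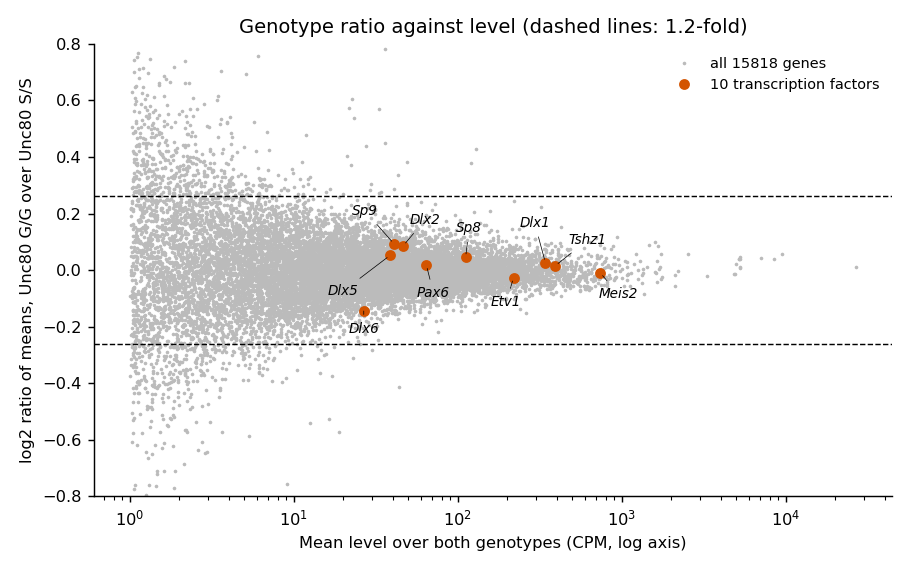
Log2 ratio of the authors' means (G/G over S/S) against the mean level over both genotypes (CPM, log axis) for all 15818 genes (grey) and the 10 factors (orange), with dashed lines at 1.2-fold and 16 genes beyond the plotted range. All 10 factors lie between the lines, and *Dlx6* lies lowest, at -0.14.

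Over the 10 factors the median log2 ratio was 0.02, beside -0.01 over all genes and -0.01 over the genes at least as abundant as the lowest factor. Of the 10, 7 were higher in G/G and 3 (*Meis2*, *Dlx6* and *Etv1*) were lower, while 47.2% of all genes and 45.3% of the equally or more abundant genes were higher. The median size of the log2 ratio regardless of sign was 0.04, beside 0.05 over all genes and 0.03 over the equally or more abundant ones. The factors thus varied about as little as genes of their abundance did. Together they summed to 2017 CPM in S/S and 2026 CPM in G/G, a difference of 0.463%. Of the 10, 7 differed by under 5%, a size that 39.7% of all genes and 18.1% of the equally or more abundant genes reached or passed, and 7 had a counting interval that included 0. *Sp9*, *Dlx2* and *Dlx6* were the exceptions in both counts. The share of all genes whose counting interval includes 0 was not computed, so whether 7 of 10 is usual is not known. Such an interval leaves out the spread between pools.

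Of 29 other transcription factors of the interneuron lineage, 23 were measured, and 0 of them passed 1.2-fold (5.74% of all genes). Their median log2 ratio was 0.02, with 14 higher and 9 lower in G/G. Among those with the highest CPM, not scaled to length, were *Sall1*, a zinc-finger gene (216.6 and 219.9 CPM), and *Pbx3*, a TALE homeobox gene (199.3 and 193.4 CPM). The widest ratios among genes of at least 5 CPM were those of the retinoic acid receptor gene *Rarb* (7.87 and 7.01 CPM, log2 ratio -0.17) and of *Nr2f2*, an orphan nuclear receptor gene (35.1 and 32.4 CPM, -0.12). Of the 23, 5 had recovered reads, with adjusted p from 0.986 to 0.993 in edgeR. *Sox11* and *Sox4*, which act in newborn neurons, had 1123 and 1176 against 1145 and 1151 reads, and 3757 and 3441 against 3722 and 3514 reads, in S/S and G/G. Their log2 fold changes were 0.04 (SE 0.06) and 0.05 (SE 0.05).

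Among paralogs of the 10 factors, 11 of 18 were measured, with a median log2 ratio of 0.02, 7 higher and 4 lower. *Sp3* (100.1 and 106.3 CPM), *Etv5* (90.6 and 85.4 CPM) and *Tshz2* (77.5 and 80.0 CPM) had the highest CPM. Past 1.2-fold (5.74% of all genes and 1.07% of those of at least 5 CPM) was 1 of the 11, *Tshz3*. It had 297 and 330 reads in the S/S libraries and 250 and 244 reads in the G/G libraries (11.2, 13.1, 9.86 and 9.86 CPM). Both G/G libraries were below both S/S libraries, and the groups likewise did not overlap in 32.5% of the recovered genes. In edgeR the log2 fold change was -0.30 (SE 0.10), with an adjusted p of 0.805, so *Tshz3* did not pass the test. *Etv4*, a relative of *Etv1*, was at 11.1 and 9.39 CPM (log2 ratio -0.24).

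Genes of finished interneurons, such as those for GABA and dopamine synthesis and for peptides, were examined next. Of 22 such genes, all measured, 0 passed 1.2-fold (5.74% of all genes). At 1.1-fold, 6 passed (18.1% of all genes), 4 of them higher and 2 lower in G/G. Most of these 6 were below the level of *Dlx6*, where counting error is wider. The median log2 ratio of the 22 genes regardless of sign was 0.06, beside 0.04 over the 10 factors and 0.05 over all genes. In direction, 14 were higher and 8 lower in G/G, and the signed median was 0.04. The GABA-synthesizing enzyme genes *Gad1* (1618 and 1606 CPM) and *Gad2* (520.0 and 524.0 CPM) and the synaptic vesicle gene *Synpr* (558.0 and 562.6 CPM) had the highest CPM. The widest ratios among those of at least 5 CPM were those of *Ddc* (5.50 and 6.49 CPM, log2 ratio 0.24) and *Slc18a2* (10.6 and 12.4 CPM, 0.22), which make and store dopamine. *Th*, the rate-limiting enzyme gene of dopamine synthesis on which Etv1 acts, was at 137.5 and 133.2 CPM (log2 ratio -0.05). The dopamine genes named here thus did not share a direction. Of the 22, 7 had recovered reads, with adjusted p from 0.805 to 0.991 in edgeR. The groups of 4 of the 7 did not overlap, beside 32.5% of the 2234 recovered genes. *Npy*, which encodes neuropeptide Y, had an unadjusted p under 0.05, with 1224 and 1142 reads in S/S and 1019 and 1011 in G/G (log2 fold change -0.17, SE 0.06, adjusted p = 0.805 in edgeR).

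**Figure D4:**
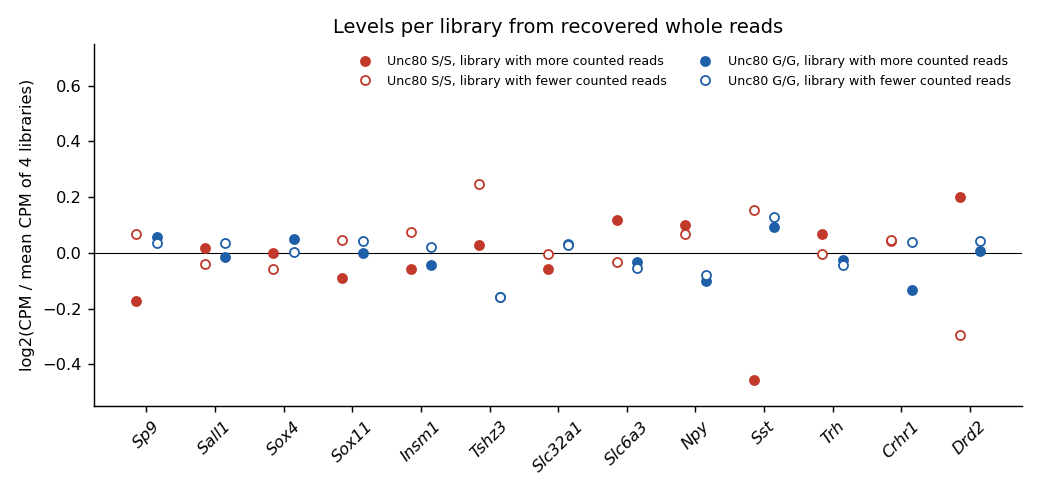
Level in each of the 4 libraries, as log2 of its CPM over the mean of the 4, for *Sp9* and 12 other listed transcription factors, paralogs and interneuron genes with recovered reads, in S/S (red) and G/G (blue), with filled points for the library of each genotype with more counted reads and open points for the other. The *Sp9* points of the genotypes overlap, and its S/S libraries (36.2 and 42.8 CPM) lie on either side of the G/G libraries.

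Markers of the cells in the samples were checked from lists of 4 to 7 measured genes. The interneuron genes above and the mitral and tufted cell markers (summed 1657 and 1612 CPM in S/S and G/G) were present, so the samples held defining RNAs of bulb neurons. Neuroblast markers summed to 983.2 and 1005 CPM, with 7 of 7 higher in G/G, beside 47.2% of all genes. Their median log2 ratio was 0.04, from 0.004 to 0.57, and a single gene held 531.5 and 548.0 CPM of the sum. Striatal markers, of interest because the striatum also makes *Meis2* and Dlx RNA, summed to 108.5 and 100.6 CPM (median log2 ratio 0.01). Of these, 3 were higher and 3 lower in G/G, and a single gene held 64.3 and 56.4 CPM. Frontal cortex markers summed to 237.5 and 238.0 CPM (-0.07), with 1 higher and 4 lower in G/G. A single gene held 132.4 and 136.6 CPM of that sum. The striatal and cortical sums are thus each led by a single gene and do not measure the amount of neighbouring tissue. Sensory neuron markers summed to 218.0 and 236.7 CPM (median 0.10). Oligodendrocyte markers summed to 2620 and 2608 CPM (median -0.06), astrocyte markers to 2173 and 2175 CPM (0.01) and microglial markers to 173.7 and 174.2 CPM (0.08, from -0.07 to 0.09). Choroid plexus markers summed to 7.26 and 11.3 CPM, with a median of 0.54 and a range from -0.17 (*Kl*) to 2.05 (*Ttr*). *Ttr*, the transthyretin gene of that epithelium, had 34 and 12 reads in S/S and 117 and 66 in G/G and passed the test in edgeR (log2 fold change 2.03, SE 0.33, adjusted p = 0.0152). It did not pass in DESeq2 (adjusted p = 0.998). In limma it passed with all libraries (adjusted p = 0.0127) and without the S/S library with 34 reads (0.0241), but not without the S/S library with 12 reads (0.335) or the G/G library with 117 (0.466) or 66 reads (0.0900). The part of these differences in the ratios of the 10 factors was not tested.

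**Figure D5:**
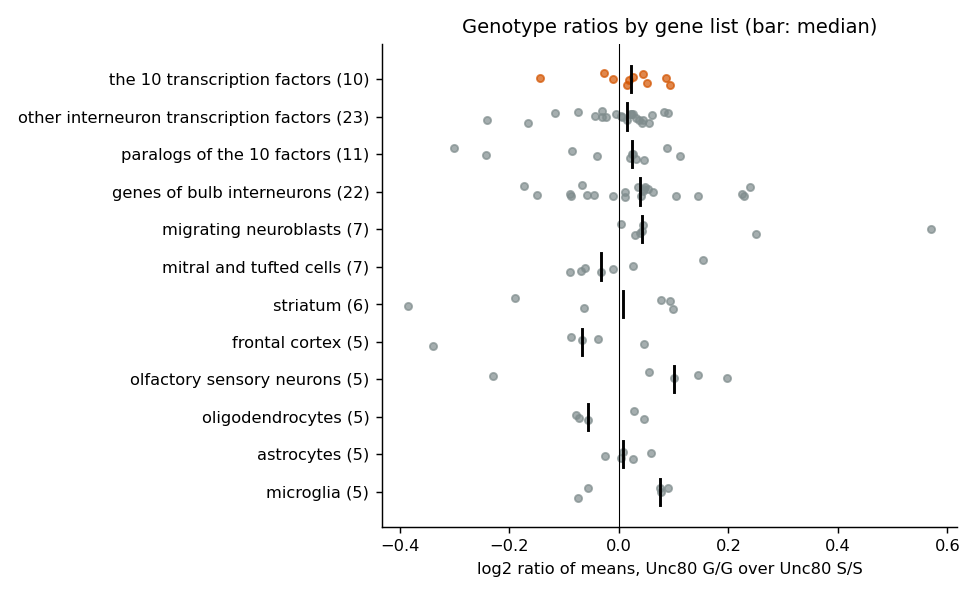
Log2 ratios of the authors' means (G/G over S/S) for the 10 factors (orange) and the genes of other lists (grey), 1 point per gene, with black bars for medians and the number of measured genes in brackets. The 10 factors span -0.14 to 0.09 with a median of 0.02. The choroid plexus list, which reaches 2.05 at *Ttr*, and the antisense RNAs are not drawn.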

How the data were processed

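RNA-seq of olfactory bulbs gave 4 libraries (75 bp, paired-end). Per the labels and methods, the authors trimmed, aligned and compared them in Partek on mm10 (GRCm38). Which aligner, annotation and normalization they used is not given in the sources used here. Deposited by the authors were the total read count of each library and a table of mean CPM per genotype for 15818 genes. That table also holds p-values, adjusted p-values, ratios and fold changes of the authors' own comparison, which were not used. The lowest mean over both genotypes in the table was 1.01 CPM.

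Ratios were computed from the authors' means. Members past 1.2-fold were counted, beside all genes and the equally or more abundant ones. Exon lengths and overlaps came from GENCODE M21 on GRCm38, in which 98.6% of symbols named 1 gene. Counting intervals (95%) cover counting error only and used the mean CPM and the counted reads per genotype.

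Each mean was also written as whole reads of either library times a fixed CPM per read, plus 0.0001 CPM. Solutions were accepted where the chance of so close a fit by accident was below 1e-04. This gave reads in both genotypes for 2234 genes (14.1%), among the 10 factors for *Sp9*, and libraries of 26479648 and 25238203 (*Unc80* S/S) and 25345718 and 24738078 counted reads (*Unc80* G/G). Most other means did not split into whole reads. The step was tested on simulated data. These reads were compared with edgeR 4.0.16 (quasi-likelihood, Benjamini-Hochberg over the 2234 genes), with TMM scaling, filterByExpr, DESeq2 1.42.0, limma 3.58.1 on log2(CPM + 1) and leaving out libraries as alternatives, in R 4.3.3. P-values measure the spread between pools, not between mice. Python 3.11.15 with numpy 2.4.6, pandas 2.3.3, scipy 1.17.1, sympy 1.14.0 and matplotlib 3.10.9 was used.

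The text names all 10 factors, the 3 most abundant genes and up to 2 with the widest ratio at 5 CPM or more of each list of related genes, and genes overlapping a member. *Sox4*, *Sox11*, *Th*, *Npy*, *Kl* and *Ttr* were chosen after their values were seen, and marker lists are given as sums. Some genes that the rule would name are not reported here. The members and lists were chosen with earlier results of these data known.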

Additional observations from a re-analysis of the deposited data

How the results depend on the processing

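The count of factors past the fold stayed at 0 of 10 with 1.5-fold (0.518% of all genes), with log2(CPM + 1), with only genes of at least 5 CPM and with ratios centred on the median of all genes. It was 1 at 1.1-fold and 3 at 5% (39.7% of all genes, 18.1% of the equally or more abundant ones), folds chosen after seeing the data. All 20 values of the 10 factors under the pseudocount and the centring kept their sign, and the largest move was 0.00523 on the log2 scale. For *Sp9*, TMM, DESeq2, limma and filterByExpr gave log2 fold changes of 0.09 to 0.10 with adjusted p from 0.986 to 0.998. Leaving out each library in turn (limma) gave -0.023 to 0.21, with adjusted p from 0.835 to 0.988. With 1 library left in a genotype, that library is assumed to vary like those of the other genotype. Of the 2234 recovered genes, edgeR called 2, and 6 with TMM, DESeq2 called 1 and limma 2, and 0 to 2 were called without 1 library. No paired analysis was possible because each value of the table averages a genotype and the recovered libraries carry no replicate number. For 9 of the 10 factors no library values could be recovered, so their own spread between pools was not estimated here.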

Other observations

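Among the neuroblast markers, the proliferation gene *Mki67* had the widest ratio, with 48 and 59 recovered reads in *Unc80* S/S and 68 and 86 in *Unc80* G/G (log2 fold change 0.57, SE 0.21, adjusted p = 0.852 in edgeR), so it did not pass the test. *Top2a*, another gene of dividing cells, had 41 and 39 against 39 and 53 reads (log2 fold change 0.25, SE 0.24, edgeR adjusted p = 0.989). Both genes were chosen after their values were seen.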
